A study of Mus musculus with 4 samples.

Results

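The genes described here are 10 mouse genes of glucocorticoid signalling. They are the receptor gene Nr3c1 and 9 genes known to respond to glucocorticoids, namely Fkbp5, Sgk1, Map3k6, Tsc22d3, Zbtb16, Klf9, Per1, Cdkn1a and Pdk4. They were chosen by name, as all probes whose RefSeq accession belongs to one of these symbols, out of 23462 genes named on the array. The choice was made with earlier results of these data known. The 10 genes had 15 probes, 14 of them well above background on each of the 4 arrays. All 10 genes were measured on every array and entered the test over all genes.

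Whole-brain total RNA was hybridised to 4 Agilent arrays with 1 dye, 1 for every pairing of a genotype with an injection. The groups were Nav1.8CreROSA26DTA mice injected with lipopolysaccharide (LPS, the endotoxin of Gram-negative bacteria), wild-type mice injected with LPS, Nav1.8CreROSA26DTA mice injected with phosphate-buffered saline (PBS) and wild-type mice injected with PBS. LPS was given intraperitoneally at 20 mg/kg and brains were taken after 12 hours. The labels give neither strain, age, sex nor hour of harvest, and leave unstated if animals were pooled, so a group and an animal cannot be told apart. In Nav1.8CreROSA26DTA mice (DTA mice from here on) the Nav1.8 sodium channel gene drives Cre, which switches on diphtheria toxin A and so kills the Nav1.8 lineage. That lineage consists chiefly of pain-sensing neurons whose cell bodies lie in peripheral ganglia, which were not sampled.

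Glucocorticoids are steroid hormones of the adrenal cortex, corticosterone in the mouse, whose release is driven by the hypothalamus and pituitary. The ligand binds the glucocorticoid receptor, held in the cytoplasm by HSP90 and co-chaperones, and the receptor then enters the nucleus and binds DNA as a dimer. In the brain the receptor is found in neurons, glia and endothelium, and systemic inflammation is a well-known activator of the hormone axis.

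Promoter sequences are shown first, because several of these genes moved together with LPS and the receptor's DNA element is known. RefSeq promoters of build GRCm38.p6, running from 250 bases before to 50 bases after a transcript start, were found for 8 of the 10 genes, with 17 starts in all. The palindromic receptor element was searched as AGAACA and TGTTCT with any 3 bases between them, a relaxed form as GNACA and TGTNC with any 3 bases between them, and the single-subunit site as AGAACA, each on both strands, where the shorter patterns may lie within the longer ones. The E-box CACGTG, the site of the clock factors CLOCK and BMAL1 and of related factors, was searched too. Matches stand in capitals and all other bases in lower case, 5′ to 3′ along the gene's strand.
Sgk1, chr10:21993640-21993939, plus strand: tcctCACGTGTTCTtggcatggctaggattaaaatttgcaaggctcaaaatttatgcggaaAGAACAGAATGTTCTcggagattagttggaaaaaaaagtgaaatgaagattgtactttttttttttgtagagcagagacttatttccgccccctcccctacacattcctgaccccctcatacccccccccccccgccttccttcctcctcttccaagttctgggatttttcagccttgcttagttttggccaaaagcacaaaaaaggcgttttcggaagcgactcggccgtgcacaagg
Map3k6, chr4:133240568-133240867, plus strand: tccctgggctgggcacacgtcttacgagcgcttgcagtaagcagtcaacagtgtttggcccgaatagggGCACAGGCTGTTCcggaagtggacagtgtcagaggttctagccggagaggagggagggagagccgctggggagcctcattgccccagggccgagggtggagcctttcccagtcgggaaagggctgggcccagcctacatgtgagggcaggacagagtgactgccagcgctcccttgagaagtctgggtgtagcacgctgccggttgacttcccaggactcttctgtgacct
Tsc22d3, chrX:140600473-140600772, minus strand: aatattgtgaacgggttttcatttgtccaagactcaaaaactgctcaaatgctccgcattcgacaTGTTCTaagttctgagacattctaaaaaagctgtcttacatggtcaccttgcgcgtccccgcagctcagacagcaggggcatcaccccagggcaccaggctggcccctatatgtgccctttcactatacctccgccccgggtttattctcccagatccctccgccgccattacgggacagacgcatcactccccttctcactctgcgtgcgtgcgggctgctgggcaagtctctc
Fkbp5, chr17:28486100-28486399, minus strand: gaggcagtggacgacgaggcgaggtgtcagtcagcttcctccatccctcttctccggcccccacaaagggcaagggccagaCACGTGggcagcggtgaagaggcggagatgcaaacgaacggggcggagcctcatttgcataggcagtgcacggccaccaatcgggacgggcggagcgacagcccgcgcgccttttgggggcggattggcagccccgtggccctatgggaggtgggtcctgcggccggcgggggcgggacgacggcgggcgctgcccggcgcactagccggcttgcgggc
Per1, chr11:69098699-69098998, plus strand: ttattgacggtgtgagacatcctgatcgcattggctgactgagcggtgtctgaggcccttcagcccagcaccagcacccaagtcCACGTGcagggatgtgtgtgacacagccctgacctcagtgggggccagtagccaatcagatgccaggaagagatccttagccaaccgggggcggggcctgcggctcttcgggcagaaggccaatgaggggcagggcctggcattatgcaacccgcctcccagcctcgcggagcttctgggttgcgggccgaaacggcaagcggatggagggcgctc

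The Sgk1 promoter shown held the full palindrome, as AGAACAGAATGTTCT from 189 to 175 bases before the start, and further upstream an E-box that overlaps a single-subunit site. Only 3 of 32817 promoters (0.00914%) held the palindrome, those of Sgk1, Acnat2 and Gm35041. The Map3k6 promoter matched the relaxed form, as GCACAGGCTGTTC from 181 to 169 bases before the start, which 156 promoters (0.475%) did. The Tsc22d3 promoter shown held 1 single-subunit site, TGTTCT, a match found in 19% of promoters. Those shown of Fkbp5 and Per1 held an E-box, found in 7.15% of promoters, while the other Per1 promoter held no E-box. Of the 17 promoters of these genes, 1 held the palindrome, 2 the relaxed form, 4 a single-subunit site and 3 an E-box. The palindrome was in 1 of 6 Sgk1 promoters and the single-subunit site in 1 of 3 Tsc22d3 promoters. Those of Cdkn1a, Pdk4 and Klf9 held none of the 4 patterns in this window. These matches are letters within a short window. Receptor binding was not measured, and sites outside the window were not searched.

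LPS was accompanied by higher signal of 9 of the 10 genes and lower signal of the receptor gene. Averaged over both genotypes, 8 rose and 1 was lower by limma's test at an adjusted p under 0.05, and Per1 did not pass. Over all 17132 genes tested, 963 rose (5.62%) and 777 fell (4.54%). The 9 responsive genes lay higher on both LPS arrays than on both PBS arrays, as 21.6% of genes did, and Nr3c1 lay lower on both, as 29.7% of genes did. The median LPS effect was 0.64 on the log2 scale for the 10 genes, against −0.03 for all genes tested. The test sets 2 arrays against 2 with the genotypes as the only repeats. Its 1 residual degree of freedom is pooled with that of genes of like intensity, so the p-values carry no measure of how animals vary. With cyclic loess in place of the 75th percentile the members' calls were 8 higher and 0 lower, and those of all genes 973 and 463. With the deposited values they were again 8 and 0, and 1043 and 433 over all genes. With scaling to the median, all genes split into 963 higher and 1292 lower, and members into 7 and 1. Without the intensity trend the splits were 3 and 0 for members and 382 and 48 for all genes.

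**Figure D1:**
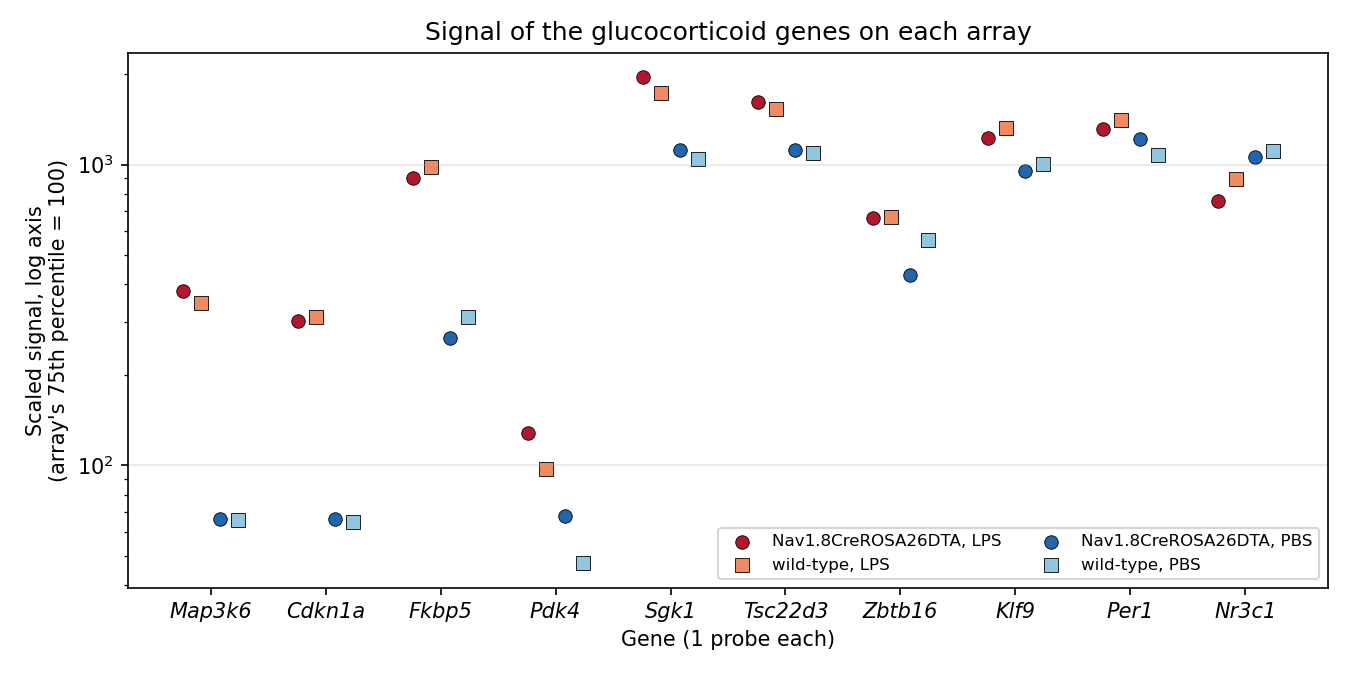
Scaled signal of the 10 genes on each of the 4 arrays (log axis, 75th percentile of the array = 100), 1 point an array. For Map3k6, Cdkn1a and Fkbp5 both LPS arrays stood well above both PBS arrays, while for Nr3c1 both lay below; heights of different genes come from different probes and are not comparable.

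Signals are given as scaled signal, the spot's processed brightness set so that the 75th percentile of its array equals 100, and compare arrays for 1 probe only. Nr3c1 encodes the glucocorticoid receptor itself. Its scaled signal was 755 in DTA brain with LPS and 893 in wild-type brain with LPS, against 1061 in DTA brain with PBS and 1107 in wild-type brain with PBS. The groups did not overlap, and the lowest value was that of DTA brain with LPS. The averaged effect was −0.40 ± 0.09 on the log2 scale (limma standard error; adjusted p = 0.0263), a signal 0.758 times that with PBS. A second Nr3c1 probe had 451 and 496 with LPS (DTA, then wild-type) and 636 and 680.3 with PBS, which is −0.48 ± 0.09 (limma, each probe as its own feature, adjusted p = 0.021). The call of the main probe ended with cyclic loess (−0.32, adjusted p = 0.0641), with the deposited values (−0.33, 0.0652) and without the intensity trend (0.226). With an array left out the fit had to drop the genotype term, and dropping it with all 4 arrays already ended the call (adjusted p = 0.102). Leaving out an array gave 0.0727 to 0.445, with effects from −0.52 (without the wild-type LPS array) to −0.28 (without the DTA LPS array). In whole-brain RNA, fewer cells of a type and less RNA per cell cannot be told apart.

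Fkbp5 encodes FKBP51, a co-chaperone that lowers the receptor's affinity for its ligand and is a standard readout of receptor activity. Scaled signals were 899 (DTA) and 982 (wild-type) with LPS, against 266 (DTA) and 313 (wild-type) with PBS. Both LPS values lay far above both PBS values, and within each injection DTA was the lower. The averaged effect was 1.71 ± 0.09 on the log2 scale, or 3.26-fold (limma, adjusted p = 4.8e-06), and 309 genes had a larger rise. The second Fkbp5 probe was dimmer, at 53.1 and 62.1 with LPS (DTA, then wild-type) and 14.9 and 16.5 with PBS, and rose by 1.87 ± 0.15 (limma, adjusted p = 0.0002). Both probes thus gave the same direction and a like size.

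Sgk1 and Map3k6 encode protein kinases. Sgk1 (serum- and glucocorticoid-regulated kinase) controls ion channels and transporters and is induced by mineralocorticoids too. Its scaled signals were 1949.5 (DTA) and 1731 (wild-type) with LPS, against 1115 (DTA) and 1041 (wild-type) with PBS. It rose by 0.77 ± 0.09 on the log2 scale, or 1.71-fold (limma, adjusted p = 0.0006). Map3k6 encodes ASK2, a stress-activated kinase upstream of the JNK and p38 pathways, and had the largest effect of the 10 genes. Its scaled signal was 381 (DTA) and 346 (wild-type) with LPS, against 66.2 (DTA) and 66.1 (wild-type) with PBS. The PBS arrays were nearly equal and both LPS arrays were far brighter. It rose by 2.46 ± 0.10, or 5.5-fold (limma, adjusted p = 1.2e-06), with 170 genes above it. Sgk1 has the palindrome and Map3k6 the relaxed match shown above, and the sizes of their effects were not compared by a test.

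Tsc22d3, Zbtb16, Klf9 and Per1 encode regulators of transcription. Tsc22d3 encodes GILZ, an inhibitor of NF-kB and AP-1 signalling. Scaled signals were 1616 (DTA) and 1533 (wild-type) with LPS, against 1119.6 (DTA) and 1091 (wild-type) with PBS. The rise was 0.51 ± 0.09 on the log2 scale (limma, adjusted p = 0.00617), and its second probe rose by 0.84 ± 0.09 (adjusted p = 0.00123 with each probe as its own feature), with 721 and 640.3 for LPS (DTA, then wild-type) and 387 and 369.7 for PBS. The 2 probes cite the same transcript, and their effects differ by more than their standard errors. Without the genotype term the call of the first probe held (adjusted p = 0.0218), and without that term and any 1 array it ended (0.0574 to 0.12), with effects of 0.47 to 0.55.

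Zbtb16 encodes PLZF, a zinc finger repressor. Its scaled signals were 664 (DTA) and 670.0 (wild-type) with LPS, against 428 (DTA) and 562 (wild-type) with PBS. The LPS arrays were alike and the spread lay in the PBS arrays. The rise of 0.44 ± 0.11 on the log2 scale passed (limma, adjusted p = 0.0343), but did not pass with each probe as its own feature (0.0644), with the mean of its probes (0.34, 0.109), or without the intensity trend (0.26). Its dimmer second probe had 25.8 and 30.5 with LPS (DTA, then wild-type) and 21.8 and 26.2 with PBS, 0.23 ± 0.16 (limma, adjusted p = 0.526), and there the wild-type PBS value lay above the DTA LPS value. Dropping the genotype term ended it as well (0.147). With an array left out too, the effect ran from 0.25 (without DTA PBS, adjusted p = 0.352) to 0.64 (without wild-type PBS, 0.0445), the only such setting in which it passed.

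Klf9 encodes a Krüppel-like factor that also responds to thyroid hormone. Its scaled signal was 1221 (DTA) and 1321 (wild-type) with LPS, against 952 (DTA) and 1008 (wild-type) with PBS. It rose by 0.37 ± 0.09 on the log2 scale (limma, adjusted p = 0.0273). The call ended with scaling to the median (0.32, adjusted p = 0.0543), without the intensity trend (0.218), without the genotype term (0.0744), and without that term and any 1 array (0.126 to 0.265). Per1 encodes a repressor of the circadian clock. Scaled signals were 1311 (DTA) and 1402 (wild-type) with LPS, against 1214 (DTA) and 1075.0 (wild-type) with PBS. The groups did not overlap, but the gap between the lower LPS and the higher PBS array was small, and the difference of 0.25 ± 0.10 did not pass (limma, adjusted p = 0.169). Of the alternatives run, it passed with quantile normalization only (0.33, adjusted p = 0.0381).

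Cdkn1a encodes p21, an inhibitor of cyclin-dependent kinases that is also a target of p53. Its scaled signals were 302.0 (DTA) and 312 (wild-type) with LPS, against 66.4 (DTA) and 65.1 (wild-type) with PBS. Values within each injection were nearly equal, and the rise was 2.22 ± 0.10 on the log2 scale, or 4.67-fold (limma, adjusted p = 2e-06). A second Cdkn1a probe was not well above background on any array, and averaging it with the first lowered the effect to 1.16 (adjusted p = 0.0237). Pdk4 encodes pyruvate dehydrogenase kinase, which turns cells from glucose to fatty acid oxidation and is induced by fasting as well. Its scaled signal was 128 (DTA) and 97.3 (wild-type) with LPS, against 67.8 (DTA) and 47.3 (wild-type) with PBS. With either injection the DTA array was the higher. Pdk4 rose by 0.98 ± 0.12, or 1.97-fold (limma, adjusted p = 0.00077). The call ended without the intensity trend (adjusted p = 0.0534) and without the genotype term (0.053). Without that term the effect was 0.72 with the wild-type PBS array left out (0.136) and 0.78 with the DTA LPS array left out (0.201).

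**Figure D2:**
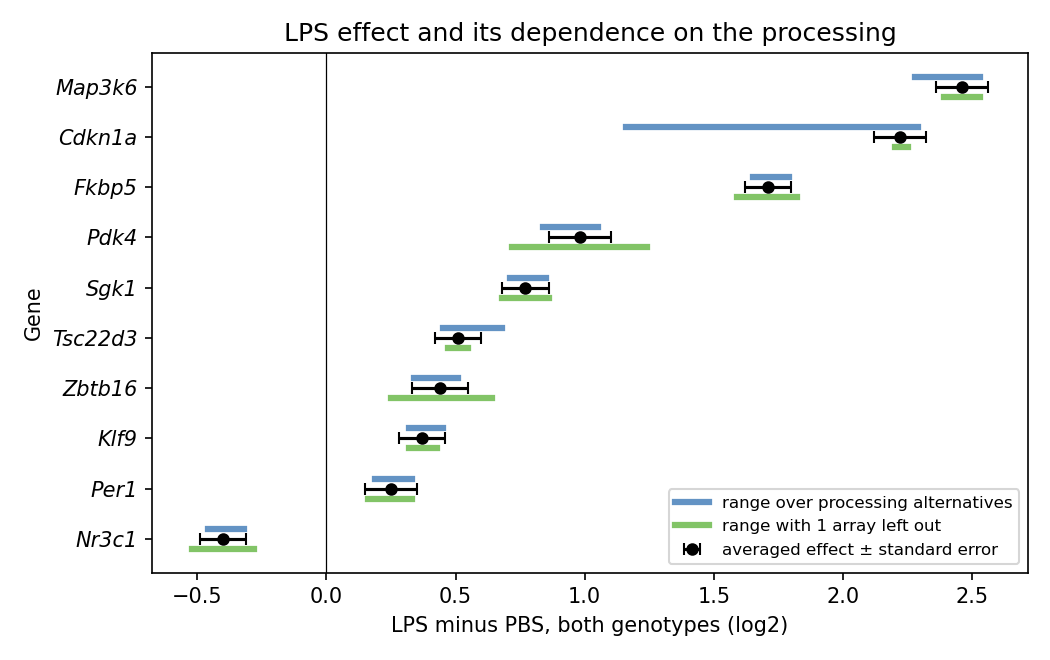
Averaged LPS effect of each gene on the log2 scale (point, with limma's standard error), with its range over 9 processing alternatives (upper bar) and with 1 array left out (lower bar). The direction held in all of these; the long bar of Cdkn1a comes from averaging in its dim probe.

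Fkbp5, Sgk1, Map3k6 and Cdkn1a kept their calls without any 1 array, at adjusted p-values of 0.00039 to 0.0436. Without the intensity trend, only Fkbp5 (adjusted p = 0.0215), Map3k6 (0.0134) and Cdkn1a (0.0153) were called. With arrays left out in turn, 4 or 5 members were called higher and 0 lower, against 5 and 0 with all 4 arrays and the same single term.

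The LPS responses of the 2 genotypes lay close together for most members, as single arrays against single arrays with no test. At least 2-fold higher with LPS were 3 of 10 genes in DTA brain (3.1% of 16530 genes measured) and 4 of 10 in wild-type brain (3.41% of 16494). Map3k6 was 2.53 higher with LPS in DTA and 2.39 in wild-type on the log2 scale, Cdkn1a 2.18 and 2.26, and Fkbp5 1.76 and 1.65. Pdk4 passed 2-fold in wild-type alone, at 0.92 in DTA and 1.04 in wild-type, which differ by little. Sgk1 was 0.81 and 0.73 higher, Tsc22d3 0.53 and 0.49, and Klf9 0.36 and 0.39, again DTA before wild-type. The widest gaps were those of Zbtb16 (0.63 in DTA, 0.25 in wild-type) and Per1 (0.11 in DTA, 0.38 in wild-type). The receptor gene Nr3c1 was −0.49 in DTA and −0.31 in wild-type. None of the 10 differed 2-fold in response, as 2.5% of 16244 genes did. The median absolute difference of responses was 0.12 for the members and 0.18 for all genes on 4 arrays.

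**Figure D3:**
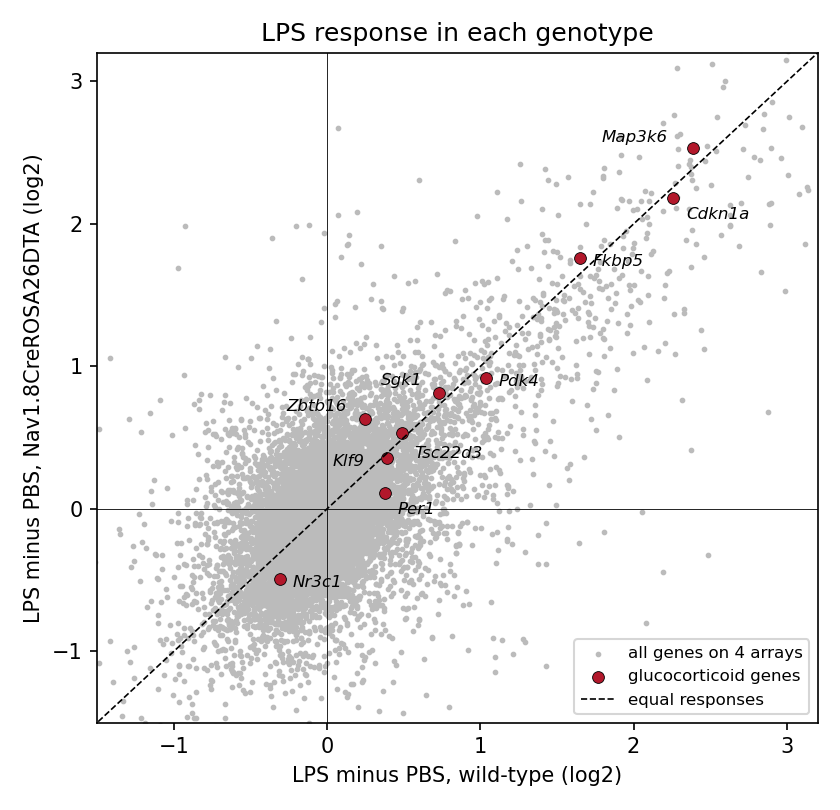
LPS minus PBS in DTA brain (vertical) against wild-type brain (horizontal), log2, 1 array against 1 each, for the 10 genes (red) and all genes measured on 4 arrays (grey; genes beyond the axes are not drawn). Map3k6, at 2.53 and 2.39, and the other members lie near the line of equal responses, with Zbtb16 above and Per1 under it.

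No member passed the averaged test of DTA against wild-type brain. Of 10 members, 0 passed at an adjusted p under 0.05 in limma's test, against 70 genes called of 17132 (0.409%). At an unadjusted p under 0.05, 1 of 10 members, Pdk4, was higher in DTA, against 1147 higher and 600 lower among the 17132 genes. Pdk4 was 0.46 ± 0.12 higher in DTA on the log2 scale (limma, adjusted p = 0.163), by 0.39 with LPS and 0.52 with PBS. It passed with normexp background correction (0.40, adjusted p = 0.0477) and without the filter on dim probes (0.46, 0.0176). Fkbp5 was −0.18 ± 0.09 in DTA (adjusted p = 0.568), by −0.13 with LPS and −0.23 with PBS, and Zbtb16 −0.20 ± 0.11 (adjusted p = 0.603), by −0.01 with LPS and −0.39 with PBS. Nr3c1 was −0.24 with LPS and −0.06 with PBS. The other 6 genes lay within 0.18 of zero with either injection. None of the 10 was 2-fold apart with LPS, as 1.2% of 16520 genes were, or with PBS, as 1.62% of 16627 were.

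Markers of other cells differed between the genotypes too. The 6 erythroid markers summed to a scaled signal of 17351 in DTA and 10847 in wild-type brain with LPS, and 33451 in DTA and 4539.6 in wild-type brain with PBS. Their largest contributor Hba-a1, a haemoglobin gene whose probe may also read its paralog, was 1.76 higher in DTA on average (limma, adjusted p = 0.1). Of 7 oligodendrocyte markers 3 were called higher in DTA, with a genotype median of 0.78, and Mobp was 1.31 higher (limma, adjusted p = 0.00943). Of the 10 neutrophil and monocyte markers 9 were tested, with 6 higher in DTA at an unadjusted p under 0.05 (limma) and 0 called. Over all 17132 genes, 1147 were higher in DTA at that threshold. The median of DTA minus wild-type for these markers was 1.05 averaged over injections, 1.97 with PBS and 0.06 with LPS. Of the other lists described here, the paralogs had 1 gene called higher in DTA, and the remaining lists had 0 called by limma, with 0 to 4 genes each at an unadjusted p under 0.05. The part of any of these in the Pdk4 values was not tested.

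**Figure D4:**
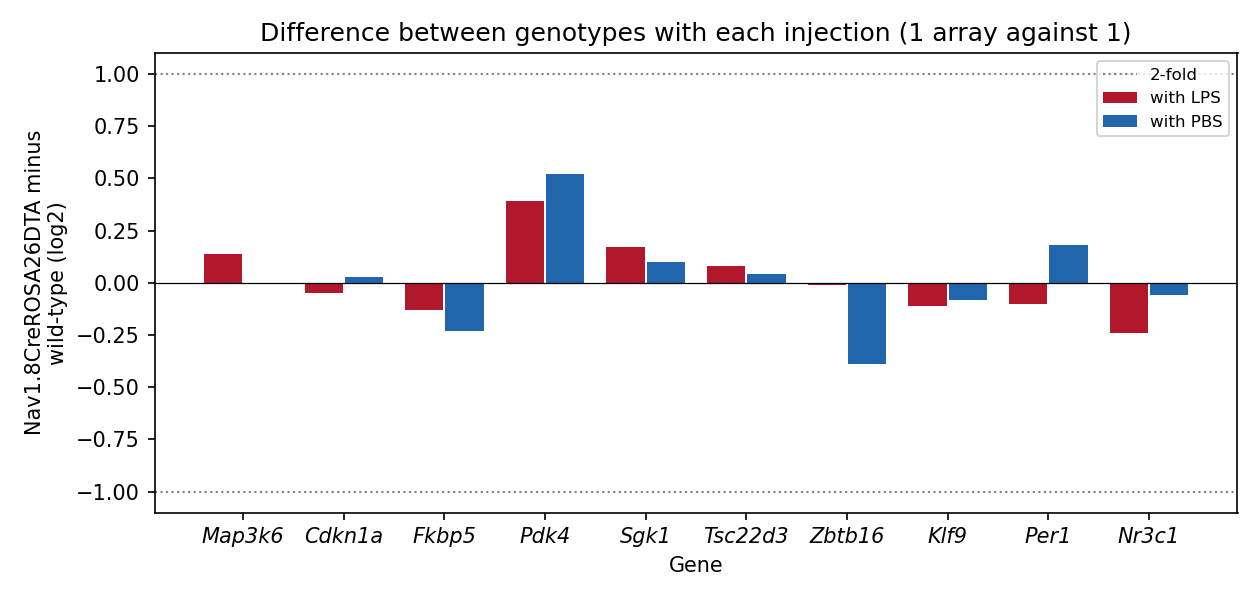
DTA minus wild-type on the log2 scale for each gene with LPS (red, left) and with PBS (blue, right), 1 array against 1, with dotted lines at 2-fold. Pdk4 was higher in DTA with both injections, at 0.39 and 0.52, and no gene reached 2-fold.

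Cell type markers show what else moved with LPS, where 5.62% of all 17132 genes tested rose and 4.54% fell. The brain markers were measured throughout, with 9 of 9 neuron, 7 of 7 astrocyte, 7 of 7 oligodendrocyte and 7 of 7 microglia markers well above background on all 4 arrays. Of 10 neutrophil and monocyte markers 5 rose, and their summed scaled signal was 2792 (DTA) and 2949 (wild-type) with LPS, against 1102 (DTA) and 742 (wild-type) with PBS. The calprotectin genes S100a8 (3.07 ± 0.62; limma, adjusted p = 0.0137) and S100a9 (3.05 ± 0.64; adjusted p = 0.0159) had the largest averaged rises of that list, but unequal ones, at 1.26 in DTA and 4.88 in wild-type for S100a8 and 1.17 in DTA and 4.93 in wild-type for S100a9. Their wild-type PBS array was low, with scaled signals of 69.2 (DTA) and 3.54 (wild-type) with PBS for S100a8 and 229 (DTA) and 10.9 (wild-type) with PBS for S100a9. Of 7 endothelium markers 2 rose and 3 fell, with Ly6c1 at 1.70 ± 0.11 (adjusted p = 1.4e-05) and Itm2a at −2.13 ± 0.12 (adjusted p = 5.8e-06). The sum of the 7 was 3053 (DTA) and 3721 (wild-type) with LPS, against 2292 (DTA) and 2064 (wild-type) with PBS. Most of the sum with LPS was Ly6c1, at 2060 (DTA) and 2625 (wild-type), against 721 (DTA) and 712 (wild-type) with PBS. The rest of the sum was lower with LPS in both genotypes. Of 7 astrocyte markers 2 rose and 1 fell, among them Gfap (1.89 ± 0.14; adjusted p = 3.2e-05) and Gja1 (−0.46 ± 0.12; adjusted p = 0.0361). Of 7 microglia markers 3 fell, among them P2ry12 (−2.73 ± 0.15; limma, adjusted p = 4.7e-06) and Cx3cr1 (−0.92 ± 0.12; 0.00117). Of 9 neuron markers 2 fell, Tubb3 (−0.58 ± 0.11; 0.011) and Map2 (−0.34 ± 0.09; 0.049). Of 7 oligodendrocyte markers, 1 rose, namely Mobp, by 0.90 in DTA and 0.19 in wild-type. Its averaged effect was 0.54 ± 0.15, with an adjusted p (limma) that rounds to 0.05, at the edge of the threshold. That list had a median of −0.27, with 1 gene higher and 3 lower at an unadjusted p under 0.05 (limma). Of the 7 lymphocyte and 6 erythroid markers, 0 were called, with unadjusted p under 0.05 in 0 and 1. Of 7 choroid plexus markers 0 were called, and 0 at an unadjusted p under 0.05. The part of these cells in the members' values was not tested.

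Other genes of the pathway were taken from lists of known roles, which were chosen with earlier results of these data known. Of 25 other glucocorticoid-induced genes 16 rose and 1 fell, while 8 stayed short of the threshold, with a median of 0.59. Among all genes tested, 5.62% rose and 4.54% fell, with a median of −0.03. Plin4, a lipid droplet coat gene, was 549 (DTA) and 686 (wild-type) in scaled signal with LPS, against 109 (DTA) and 231 (wild-type) with PBS, and rose by 1.95 ± 0.16 on the log2 scale (limma, adjusted p = 5.9e-05). Cebpd, a transcription factor gene that inflammation induces as well, rose by 1.91 ± 0.10 (adjusted p = 3.3e-06), and Angptl4, an inhibitor of lipoprotein lipase, by 1.66 ± 0.11 (adjusted p = 1.8e-05). Ddit4 encodes REDD1, an inhibitor of mTORC1, and rose by 1.31 ± 0.09 (adjusted p = 2e-05). Glul, which encodes glutamine synthetase and was named after its values were seen, was the 1 gene of the list that fell (−0.37 ± 0.09; adjusted p = 0.0377). Several of these genes answer to other signals too.

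Fewer genes of the receptor's own machinery were called, without a test of that difference. Calls this few lie near the share over all 17132 genes tested, of which 5.62% rose and 4.54% fell. At an unadjusted p under 0.05 in limma's test, 1785 of all genes were higher and 2251 lower. Of 12 genes of receptor chaperones and co-chaperones 0 rose and 0 fell in limma's test, with 0 higher and 3 lower at an unadjusted p under 0.05 and a median of −0.09. The HSP90 gene Hsp90aa1 was −0.23 ± 0.10 (adjusted p = 0.176), Stub1, a ubiquitin ligase that acts with chaperones, −0.26 ± 0.09 (0.107), and the phosphatase gene Ppp5c −0.25 ± 0.09 (0.148). Hspa1b lay in the other direction, at 0.22 ± 0.13 (limma, adjusted p = 0.367). Of 10 coactivators and corepressors 0 rose and 1 fell (median −0.13; 0 and 3 at an unadjusted p under 0.05), the acetyltransferase gene Crebbp by −0.43 ± 0.09 (limma, adjusted p = 0.014).

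Among 14 genes of ligand supply and of the hypothalamic-pituitary-adrenal axis, 12 were tested, 1 rose and 3 fell, with a median of −0.09. Abcb1a encodes P-glycoprotein, an efflux pump of the blood-brain barrier that carries steroids, and its scaled signal was 45.1 (DTA) and 61.1 (wild-type) with LPS, against 159 (DTA) and 139 (wild-type) with PBS. It fell by 1.5 on the log2 scale (SE 0.15; limma, adjusted p = 0.00029). Crhr1, the receptor of corticotropin-releasing hormone, was −0.84 ± 0.10 (adjusted p = 0.00098), and Crhbp, which encodes the binding protein of that hormone, −0.45 ± 0.12 (adjusted p = 0.0411). H6pd, whose enzyme feeds NADPH to the corticosterone-regenerating enzyme HSD11B1, rose by 0.52 ± 0.14 (adjusted p = 0.0432).

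**Figure D5:**
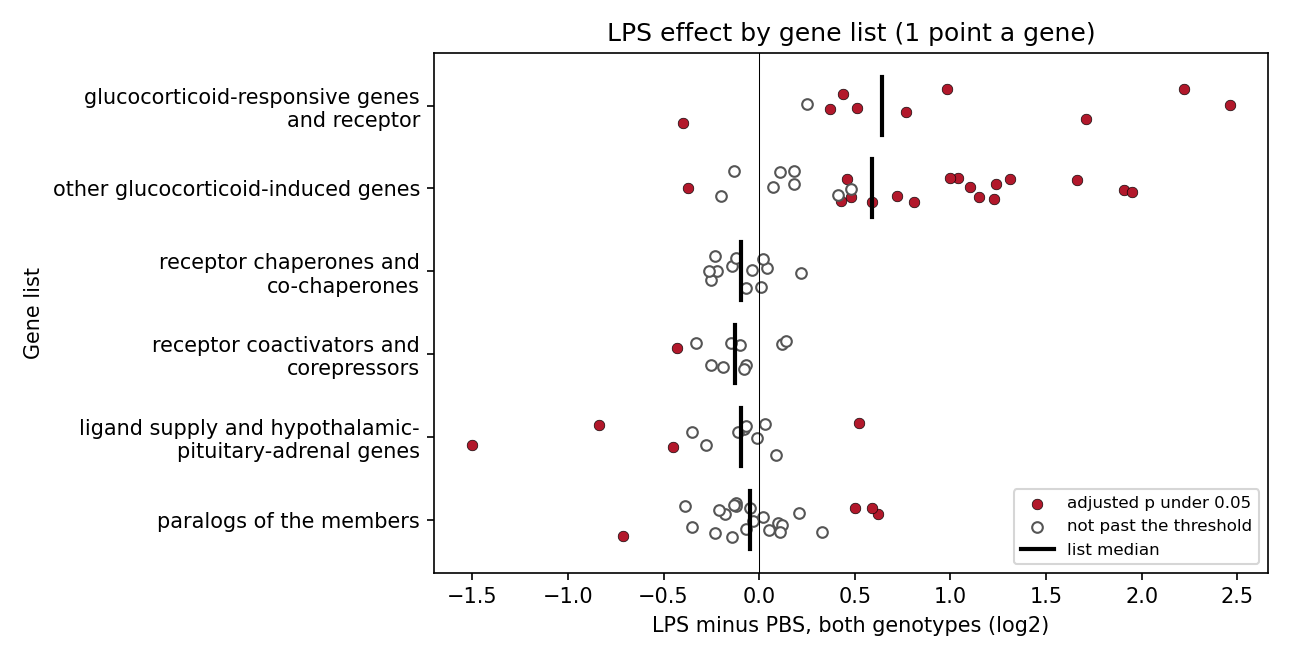
Averaged LPS effect (log2) of each tested gene in 6 lists, 1 point a gene with random vertical placement, filled where adjusted p was under 0.05, with a bar at the list median. Medians were 0.64 for the 10 genes and 0.59 for other glucocorticoid-induced genes, and from −0.13 to −0.05 for the other 4 lists. The genes and lists were chosen with earlier results of these data known.

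Paralogs of the 10 genes were called less often in count, without a test of that difference. Of 24 paralogs 23 were tested, 3 rose and 1 fell, with a median of −0.05, where 5.62% of all genes rose and 4.54% fell. Tsc22d4 rose by 0.62 ± 0.10 on the log2 scale (limma, adjusted p = 0.00355), Klf15, itself glucocorticoid-induced, by 0.59 ± 0.10 (adjusted p = 0.00446) and Per3 by 0.50 ± 0.12 (adjusted p = 0.0274), while Klf16 fell, at −0.71 ± 0.12 (adjusted p = 0.00629). The mineralocorticoid receptor gene Nr3c2, named after its values were seen and a second receptor of corticosterone, was −0.35 ± 0.16 and did not pass (limma, adjusted p = 0.22).

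Genes that share other known inputs with 3 members were counted as well. For Cdkn1a, 2 of 13 tested p53 targets rose and 0 fell (median 0.05; 4 and 1 at an unadjusted p under 0.05), Trp53inp1 by 1.04 ± 0.12 (limma, adjusted p = 0.00052) and Sesn1 by 0.38 ± 0.10 (0.0346), while Gadd45a (0.44 ± 0.18, 0.178) and Btg2 (0.43 ± 0.13, 0.0835) did not pass. For Pdk4, 4 of 11 fasting and PPAR targets rose and 0 fell (median 0.36; 6 and 2 unadjusted), Ucp2 by 2.11 ± 0.15, Plin2 by 1.69 ± 0.12, Angptl4 as given above and Cpt2 by 0.47 ± 0.10. For Per1, 1 of 15 clock genes rose and 0 fell (median −0.03; 3 and 0 unadjusted), namely Per3. Among all 17132 genes tested, 5.62% rose and 4.54% fell, and the clock count lies near that share. At an unadjusted p under 0.05 in limma's test, 1785 of all genes were higher and 2251 lower. Angptl4, Klf15, Per3, Fkbp4 and Nr3c2 each stand in 2 of the lists. Per2 stands among the other glucocorticoid-induced genes, the paralogs and the clock genes.

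The genes whose 4 values ran most like those of Fkbp5, among 16234 others measured on all arrays, were Xaf1, Asb4 and Rab32, with root mean square differences of 0.0776, 0.084 and 0.0971 on the log2 scale after centring each gene. They were 1.85, 1.59 and 1.64 higher with LPS. Among the members, Cdkn1a was nearest to Fkbp5 by that measure (0.277) and Nr3c1 farthest (1.06). Asb4 is also the protein-coding gene next to Pdk4 on chromosome 6 in the GRCm38.p6 gene order, and rose by 1.59 ± 0.20 (limma, adjusted p = 0.00097), with scaled signals of 19.2 (DTA) and 22.9 (wild-type) with LPS against 6.69 (DTA) and 7.22 (wild-type) with PBS. Sytl1 and Dync1i1 were named after their values were seen. On the other side of Pdk4, Dync1i1 was 0.19 ± 0.09 (adjusted p = 0.239). Of the 20 protein-coding neighbours of the 10 genes, 15 were tested. Of these 1 rose, Asb4, and 1 fell, Sytl1 beside Map3k6 (limma, −0.62 ± 0.13; adjusted p = 0.0146). Fkbp5 and Cdkn1a both lie on chromosome 17 and are not next to each other.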

How the data were processed

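Brain RNA of 4 groups was measured on 4 single-colour Agilent arrays, 1 per group. The spot intensities are the processed signals deposited by the authors, background-subtracted by Feature Extraction (version 12.0.3.1 per the file headers, 11.0.1.1 per the submitters' processing notes), and the quality flags used beside them come from the same deposited files. The authors' value table holds the same intensity times 1 factor for each array.

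Outlier spots were left out, and log2 of the intensity minus each array's 75th percentile was taken from the deposited signals. Probes were named by RefSeq accession, 1 probe was kept a gene (well above background on most arrays, then highest mean), and genes well above background on at least 2 arrays were tested (17132). limma 3.58.1 in R 4.3.3 fitted genotype plus injection with an intensity trend, two-sided, with Benjamini-Hochberg adjustment over all genes and a threshold of 0.05. All p-values not otherwise named are limma's. The fit was checked on simulated data.

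Between 66.5% and 69.5% of probes were well above background, and precision is limited by the number of arrays. All arrays lay on 1 slide, where position and group cannot be told apart. The members and gene lists were chosen with earlier results of these data known. From each list at most 4 genes (2 for cell types) with the largest absolute LPS effect were named, and other names are marked as chosen after their values were seen. Alternatives were other scalings, background, filters, probe rules and leaving out an array; for normexp the median signal was used, as no mean signal column was in the files used here.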

Additional observations from a re-analysis of the deposited data

Results flagged for a closer look

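Opposite signs under the 2 conditions compared were looked for, each 1 array against 1, and the differences were not tested. The LPS response was compared between genotypes for the 10 genes and the list genes named by rule, and only Hba-a1 had opposite signs. The genotype difference was compared between injections for the 10 genes only, and Per1 and Cdkn1a had opposite signs. Several list genes had them too, among them Abcb1a (−0.44 with LPS, 0.19 with PBS) and Cx3cr1 (−0.16 with LPS, 0.31 with PBS). Hba-a1, a haemoglobin gene, was lower with LPS in DTA brain and higher with LPS in wild-type brain, and its response in DTA minus that in wild-type was −2.19 on the log2 scale. Its scaled signals were 15019 (DTA) and 9467 (wild-type) with LPS, against 28287 (DTA) and 3896 (wild-type) with PBS. Further marker genes outside that rule, named after their values were seen, did so too, among them Alas2 (−1.11 in DTA, 1.43 in wild-type) and Hbb-bt (−1.15 in DTA, 1.09 in wild-type). Per1 was lower in DTA than in wild-type with LPS (−0.10) and higher with PBS (0.18), a difference of −0.27. Cdkn1a was −0.05 with LPS and 0.03 with PBS, a difference of −0.08, where the technical SD between repeat spots was 0.0418 to 0.0456 on the log2 scale.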

How the results depend on the processing

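No member changed direction with LPS under the 9 alternatives or with an array left out. No paired analysis was possible because the labels give no replicate numbers and each group has 1 array. Of all genes, the count higher with LPS (963) was 1583 without the filter on dim probes, 382 without the intensity trend and 370 to 514 with an array left out. The count lower (777) was 463 with cyclic loess, 433 with the deposited values, 504 with the mean of probes, 1292 with median scaling, 1567 without the filter, 48 without the trend and 70 to 187 with an array left out. Members called higher (8) were 3 without the trend and 4 to 5 with an array left out. Members called lower (1) were 0 with cyclic loess, with the deposited values, without the trend, and 0 to 0 with an array left out. Genotype calls over all genes (70) were 29 with cyclic loess, 28 with the deposited values, 12 with the mean of probes, 197 with median scaling, 958 without the filter, 0 without the trend, 383 with normexp and 241 with quantile normalization. They were 0 to 0 with an array left out. These fits, for LPS as for genotype, keep the effect's own term only, since 3 arrays leave no residual degree of freedom for both, so part of each loss comes from the dropped term. With that single term and all 4 arrays, 597 genes were higher and 278 lower with LPS, members 5 and 0, and 0 genes were called for genotype. Members called for genotype (0) were 1 without the filter and 1 with normexp. The median LPS effect over genes (−0.03) ran from −0.09 with median scaling to 0.04 with the deposited values. Fitting each probe as its own feature, and the single-term fit of all 4 arrays, were chosen after seeing the data. The lone array of a group left by such a fit was assumed to vary like the others.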
